A study of Mus musculus with 8 samples.

Results

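Box H/ACA snoRNAs are small nucleolar RNAs that direct the conversion of uridine to pseudouridine at chosen positions of ribosomal RNA and other RNAs. They were taken from a table of small RNA rows as every row whose name begins, ignoring case, with Snora, except those beginning Snora73, with no filter on level. This gave 92 of 964 rows, 29 with mixed-case mouse symbols (Snora33) and 63 with upper-case numbered names (SNORA51.4). Row names are given here without their shared transcript suffix.

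The study sequenced small RNA from GMLPs, granulocyte-monocyte-lymphoid progenitors sorted from mouse bone marrow. One group came from iMLL-ENL mice, written iME in the protocol, and the other from WT mice, with 4 libraries each. Cells of both groups were kept for 3 days in culture with DOX (doxycycline, which switches on transgenes built to respond to it) before total RNA was isolated, so the WT cells received the drug as well. MLL-ENL is a fusion oncoprotein of acute leukaemia. The promoter that drives the transgene is not given in the labels, and they do not say that each replicate came from its own mouse. The p-values therefore cover only the variation among the libraries, part of which may be technical. The fusion transcript and the protein-coding markers of GMLPs were not analysed here. In such bulk samples, fewer cells of a type and less RNA per cell cannot be told apart.

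A box H/ACA snoRNA folds into a pair of hairpins joined by a hinge that holds the H box, and it ends in a tail with the trinucleotide ACA. It is cut out of an intron of a host gene and is held by the proteins dyskerin, Nhp2, Nop10 and Gar1. A pocket in a hairpin pairs with the target RNA, and dyskerin makes the pseudouridine there. Human mutations in the dyskerin gene cause dyskeratosis congenita, in which the bone marrow fails.

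The transcripts below are some of those on which the results turn. Snora81 and Snora74a, which also rose, are not shown. Snora33 and Snora3 rose, and Snora24 took the most reads per length among the members with a known length. Snora20 had the lowest change among the tested members. The others are the 3 members inside the gene Snhg12. Capitals mark the motif ANANNA nearest the middle, the form of the H box, and the last ACA, where one lies within 25 bases of the end. The sequences are those of GENCODE release M21 on GRCm38, read 5′ to 3′ on the transcript strand.
Snora33: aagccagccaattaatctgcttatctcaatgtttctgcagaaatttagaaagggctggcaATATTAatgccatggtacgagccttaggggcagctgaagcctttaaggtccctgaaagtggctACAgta
Snora3: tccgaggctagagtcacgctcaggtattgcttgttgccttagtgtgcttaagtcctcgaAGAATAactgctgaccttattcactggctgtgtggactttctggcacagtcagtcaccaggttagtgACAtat
Snora24: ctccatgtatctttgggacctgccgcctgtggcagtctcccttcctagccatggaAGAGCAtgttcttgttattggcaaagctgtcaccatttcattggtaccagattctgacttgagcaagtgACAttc
Snora20: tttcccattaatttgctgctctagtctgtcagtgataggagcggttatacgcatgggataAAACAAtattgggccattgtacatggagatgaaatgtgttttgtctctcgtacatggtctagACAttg
Snora16a: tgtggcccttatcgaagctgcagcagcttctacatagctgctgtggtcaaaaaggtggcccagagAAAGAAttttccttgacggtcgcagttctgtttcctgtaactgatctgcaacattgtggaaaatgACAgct
Snora44: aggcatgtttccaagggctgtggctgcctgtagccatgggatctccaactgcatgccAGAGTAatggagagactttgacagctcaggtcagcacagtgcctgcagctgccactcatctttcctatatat
Snora61: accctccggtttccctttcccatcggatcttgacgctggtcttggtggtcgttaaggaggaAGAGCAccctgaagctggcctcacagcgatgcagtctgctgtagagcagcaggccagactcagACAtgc

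Both motifs could be looked for in the 29 members with coordinates, which were 121 to 196 bases long. ACA lay exactly 3 bases before the end in 23 of them (79.3%), and in 0 of 99 box C/D snoRNA (Snord) transcripts of the same annotation, which were 64 to 238 bases long. ANANNA began between 40% and 65% of the length in 26 of the 29 (89.7%) and in 51 of the 99 Snord transcripts (51.5%), so this loose motif is common in other snoRNAs too. Snora44 and Snora81 had no ACA within the last 25 bases as annotated. Snora81 is annotated with 178 bases. These matches describe letters in a window and not sites. The 63 upper-case rows matched no transcript and have no sequence or coordinates here.

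The unit of the deposited values is reads per 1000000 of a library (RPM). Judged by the steps between low values, 7620000 to 9270000 reads lie behind this scale in the iMLL-ENL libraries and 5910000 to 7700000 in the WT libraries. By that estimate the members held 12103 to 18160 reads per iMLL-ENL library and 5412 to 12092 per WT library. Every one of the 736 member values came to at least 3 reads, a level of 0.323 to 0.507 RPM, and none was 0. Such floors cover counting error only. The mean correlation of a library with its own group was 0.990 to 0.994 in iMLL-ENL and 0.955 to 0.968 in WT, except for WT replicate 2, which stood apart at 0.908.

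Summed over the 92 rows, box H/ACA snoRNAs took 1589, 1713, 1604 and 2275 RPM in iMLL-ENL replicates 1 to 4, against 1329, 1488, 915 and 1695 RPM in WT replicates 1 to 4. The means were 1795 ± 324 RPM in iMLL-ENL and 1357 ± 330 RPM in WT (SD, n = 4 each), a ratio of 1.32. The groups overlap, since WT replicate 4 lies above iMLL-ENL replicates 1 and 3. No test was made on the sum. The ratio ranged from 1.19 to 1.44 when 1 library was left out, and it was 1.01 after TMM scaling, which sets most rows of the table level. Of the sum of all 964 rows, the members took 0.557%, 0.640%, 0.618% and 0.779% in iMLL-ENL and 0.398%, 0.387%, 0.274% and 0.565% in WT. That share is higher in the mean by a ratio of 1.60, and the groups still overlap through WT replicate 4. All rows summed to 276151 ± 15098 RPM in iMLL-ENL and 338084 ± 34805 RPM in WT, so the share also moves with this total.

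Beside the box C/D snoRNAs, which guide ribose methylation and come from the same kind of introns, the members took a proportion that overlapped between the groups. For every 100 RPM of Snord rows, the H/ACA rows took 8.66, 10.2, 8.53 and 9.95 RPM in iMLL-ENL and 9.01, 10.4, 7.58 and 9.44 RPM in WT. The means were 9.34 ± 0.87 in iMLL-ENL and 9.10 ± 1.16 in WT (SD, n = 4 each), with the groups overlapping throughout. The 142 Snord rows summed to 19194 ± 2601 RPM in iMLL-ENL and 14786 ± 2422 RPM in WT. Scarna rows, guides of the Cajal body, summed to 311 ± 44 RPM in iMLL-ENL and 256 ± 60 RPM in WT. The 3 Snora73 rows, which are H/ACA RNAs by structure but lie outside the rule, summed to 324 ± 86 RPM in iMLL-ENL and 318 ± 80 RPM in WT.

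**Figure D1:**
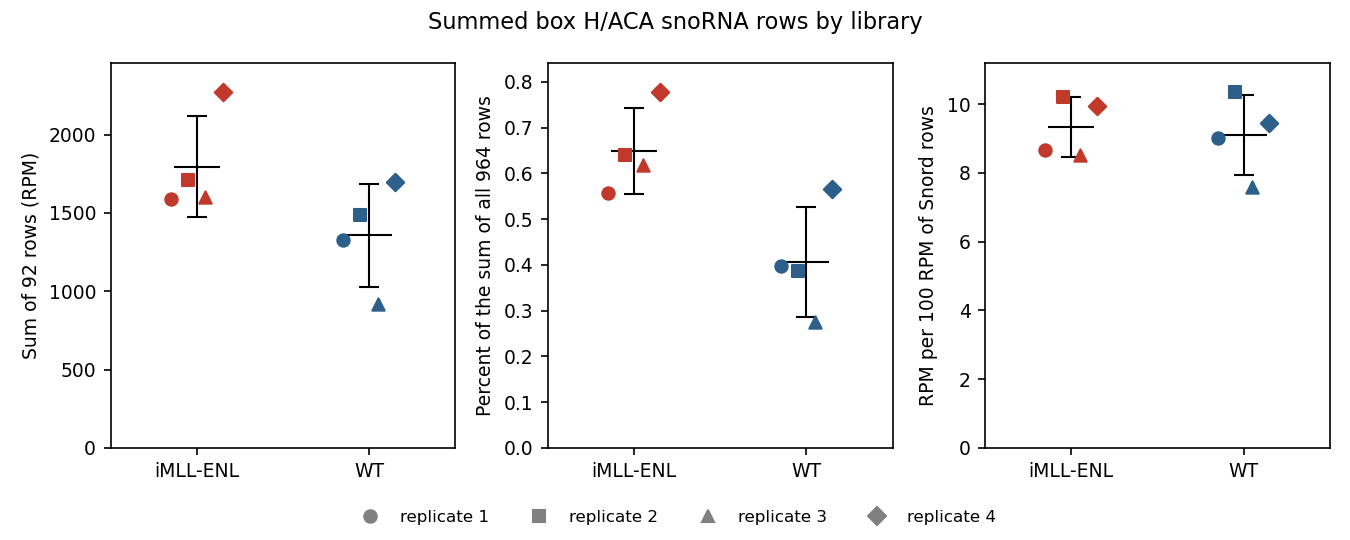
Box H/ACA sum per library in RPM, as a percent of all 964 rows and per 100 RPM of Snord rows, with a symbol per replicate, the mean as a bar and the SD as whiskers. The first 2 panels place iMLL-ENL higher with an overlap through WT replicate 4, and the third shows both groups near 9.

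Much of the spread within a group was shared by the members. iMLL-ENL replicate 4 was the highest of its group in 80 of the 92 rows (87.0%), against 479 of all 964 rows (49.7%). WT replicate 3 was the lowest of its group in 63 of the members (68.5%), against 468 of all rows (48.5%), and WT replicate 4 was the highest in 60 (65.2%). WT replicate 2 went to both ends, as the highest of its group in 21 members and the lowest in 26. For WT replicates 4 and 2 no such count was made over all rows.

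Across rows, the mean was higher in iMLL-ENL for 77 of the 92 members (83.7%), against 602 of all 964 rows (62.4%). The ratio of the group means ran from 0.495 for SNORA36.1 to 3.19 for Snora15, with a median of 1.39. All 4 iMLL-ENL libraries lay above all 4 WT libraries in 18 of the 92 members (19.6%), where the background over all rows was 29.3%. In 0 members did all iMLL-ENL libraries lie below all WT libraries, where the background was 7.99%. The share without overlap upward is thus no larger among the members than in the table as a whole.

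Testing required 10 RPM or more in at least 4 of the 8 libraries. This kept 38 members, 19 of each kind of name, and left out 54. Of the 38, 26 passed in all 8 libraries, and 11 of the other 12 passed in more iMLL-ENL than WT libraries. In limma on log2(RPM + 1), with adjustment over all 633 tested rows, 8 of the 38 members rose in iMLL-ENL (21.1%), against 20.4% of all tested rows, and 0 fell, against 8.53%. An unadjusted p under 0.05 was reached by 14 of the 38, and by 278 of the 633. The share of members called higher is close to the background. Tested members had a median log2 fold change of 0.57, against 0.31 for all tested rows, and without the filter it was 0.40 over the 92 members and 0.33 over all 964 rows. Among neighbouring classes, 25 of 128 tested Snord rows rose and 1 fell (median 0.27), 3 of 8 Scarna rows rose and 0 fell (median -0.04), and 0 of 3 Snora73 rows were called (median 0.01).

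These counts rest on the scale and on single libraries. TMM scaling moved the median of all tested rows to -0.08 and left 1 member higher (background 5.53%), and quantile normalization left 2 (background 10.6%). Scaling to the total of the 964 rows gave 22 (background 39.7%). Leaving the 5 most abundant rows out of that total gave 25 (background 40.3%). The median of the tested members lay 0.27 log2 units above that of all tested rows on the deposited scale, a gap that a change of library scale can hardly move. It was 0.20 without WT replicate 2. Without the filter the gap was 0.075, with 56 of the 92 members above the median of all rows. With 1 library left out, 0 members rose without WT replicate 1 (background 7.27%) and 1 rose without iMLL-ENL replicate 4 (11.1%). There were 3 each without iMLL-ENL replicate 1 (11.2%), 2 (13.4%) or 3 (10.4%) or WT replicate 3 (13.1%). Without WT replicate 2, 20 rose, all 8 among them (background 41.1%), and without WT replicate 4, 12 rose, again with all 8 (24.3%).

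**Figure D2:**
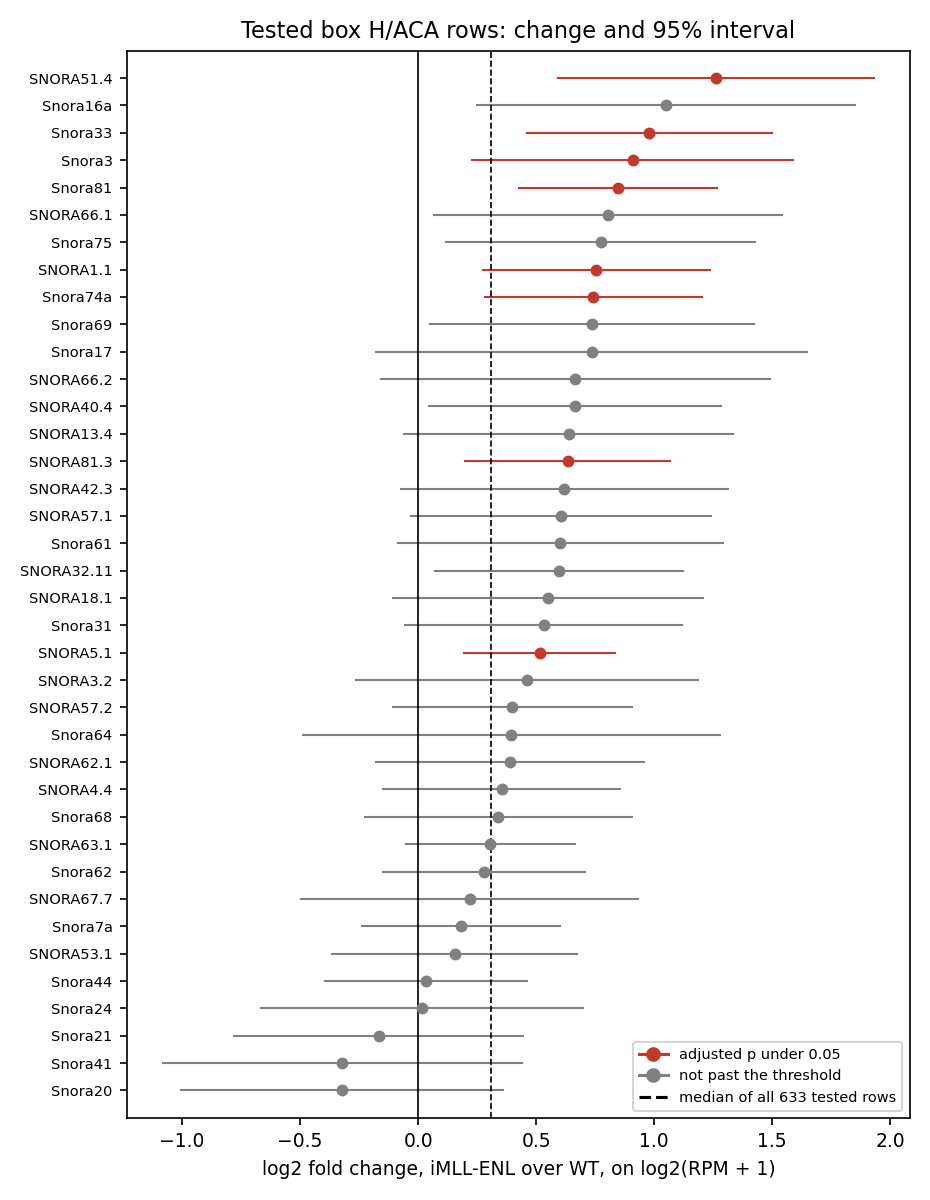
Log2 fold change of iMLL-ENL over WT for the 38 tested members, as points with 95% intervals from limma, in red where the adjusted p is under 0.05. The dashed line is the median of all 633 tested rows, 0.31, and 28 of the 38 members lie above it.

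SNORA51.4 had the largest change among the tested members. It had 42.80, 69.44, 49.02 and 74.15 RPM in iMLL-ENL replicates 1 to 4, against 19.46, 26.37, 15.05 and 37.98 RPM in WT replicates 1 to 4. The lowest iMLL-ENL library lies above the highest WT library. The means were 58.9 ± 15.3 RPM in iMLL-ENL and 24.7 ± 9.995 RPM in WT (SD, n = 4 each), a ratio of 2.38. Its log2 fold change was 1.26 ± 0.30 (SE, adjusted p = 0.0172 in limma). The adjusted p was 0.05003 without iMLL-ENL replicate 2, 0.0513 without iMLL-ENL replicate 4 and 0.0574 without WT replicate 1, each just past the threshold, and 0.0360 after TMM scaling. It was the 1 member that rose after TMM scaling.

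Snora33 lies in an intron of Rps12, the gene of a ribosomal protein of the small subunit, at chr10:23785347-23785475 on the minus strand (GRCm38). It had 34.8, 38.2, 39.5 and 45.5 RPM in iMLL-ENL, against 19.2, 20.7, 12.5 and 28.6 RPM in WT. The groups do not overlap. The means were 39.5 ± 4.5 RPM in iMLL-ENL and 20.2 ± 6.6 RPM in WT (SD, n = 4 each), with a log2 fold change of 0.98 ± 0.23 (SE, adjusted p = 0.0170 in limma). The call was lost after TMM scaling (0.0519), after quantile normalization (0.0576), without iMLL-ENL replicate 4 (0.0502) and without WT replicate 1 (0.0536). The log2 fold change was 0.59, 0.91, 0.91 and 0.97 in those fits, in the same order.

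Snora81 lies in an intron of Eif4a2, the gene of a helicase of translation initiation, at chr16:23110756-23110933 on the plus strand. It had 66.2, 60.1, 64.8 and 80.9 RPM in iMLL-ENL, against 32.6, 45.3, 28.8 and 44.6 RPM in WT. Every iMLL-ENL library is above every WT library. Its log2 fold change was 0.85 ± 0.19 (SE, adjusted p = 0.0138 in limma), and the call was lost after TMM scaling (0.0725) and without WT replicate 1 (0.0536). SNORA81.3, a row with the same number, had 31.8, 27.8, 34.8 and 42.2 RPM in iMLL-ENL, against 22.3, 24.8, 15.7 and 24.1 RPM in WT, and rose by 0.63 ± 0.19 (SE, adjusted p = 0.0380 in limma). Reads of rows that share a number may be split between copies. The sum over the number 81 was 98.0, 87.9, 99.6 and 123 RPM in iMLL-ENL, against 54.9, 70.1, 44.5 and 68.7 RPM in WT, a ratio of 1.72 without overlap.

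Snora3, in an intron of the ribosomal protein gene Rpl27a at chr7:109520120-109520251 on the plus strand, passed the threshold by the least. It had 15.1, 12.9, 15.9 and 26.2 RPM in iMLL-ENL, against 6.44, 10.5, 6.43 and 12.1 RPM in WT. The gap between the groups is under 1 RPM, and 2 WT libraries lie under the level used to filter rows. Its log2 fold change was 0.91 ± 0.30 (SE, adjusted p = 0.0493 in limma). Among its copies, SNORA3.2 changed by 0.46 (adjusted p = 0.292), and SNORA3.1 and SNORA3.3 were not tested. Of the copies of other named members, SNORA62.1 was tested and changed by 0.39 ± 0.25 (SE, adjusted p = 0.255), and those not tested had ratios of the group means between 1.05 for SNORA5.3 and 1.39 for SNORA74.1.

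The 3 others that rose had smaller changes. SNORA1.1 had 21.40, 21.03, 21.95 and 27.81 RPM in iMLL-ENL, against 14.28, 13.12, 9.64 and 16.5 RPM in WT (log2 fold change 0.75 ± 0.21, SE, adjusted p = 0.0307 in limma). Snora74a, which is known in human as U19 and guides on 28S rRNA, had 25.7, 29.1, 30.4 and 35.95 RPM in iMLL-ENL, against 17.1, 19.0, 12.7 and 23.1 RPM in WT (0.74 ± 0.20, SE, adjusted p = 0.0290 in limma). SNORA5.1 had 29.5, 36.3, 30.7 and 33.1 RPM in iMLL-ENL, against 21, 25.5, 19.95 and 23.3 RPM in WT (0.51 ± 0.14, SE, adjusted p = 0.0295 in limma). In all 3 the groups do not overlap. The calls of Snora3, SNORA1.1, Snora74a and SNORA5.1 were lost after TMM scaling, after quantile normalization and without any 1 of iMLL-ENL replicates 1 to 4 or WT replicates 1 and 3. Snora3 also lost it with a pseudocount of 10 (adjusted p = 0.0512). SNORA81.3 lost its call under the same settings except without iMLL-ENL replicate 2. The highest adjusted p of these 5 rows ranged from 0.175 for Snora74a to 0.607 for SNORA5.1.

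**Figure D3:**
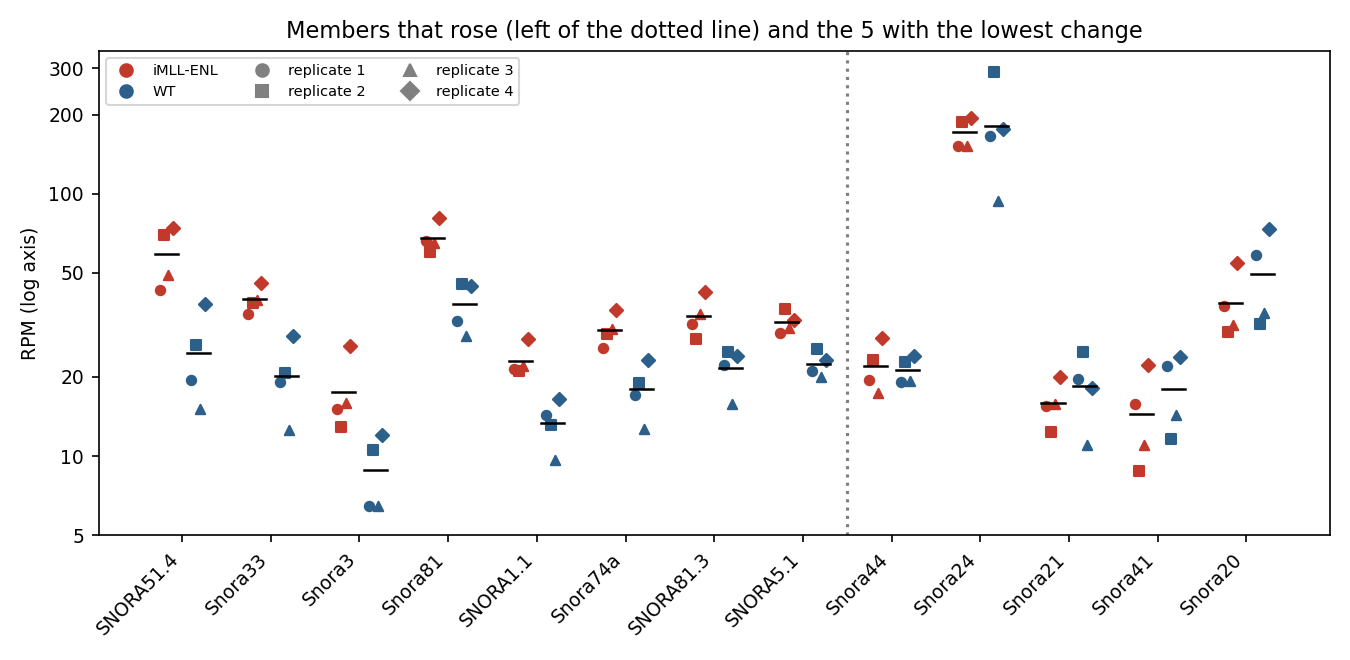
RPM per library on a log axis for the 8 members that rose, left of the dotted line, and the 5 tested members with the lowest change, with a symbol per replicate and the mean as a line. In the 8, the iMLL-ENL points lie above all WT points. In the 5, the groups overlap.

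Among the 10 members with the highest mean, Snora81 rose, as given above, and none of the others was called. Snora24, which in human guides on 18S rRNA, lies in an intron of the long non-coding RNA gene Snhg8 at chr3:123507937-123508066 on the minus strand. Per 100 bases it took 131 ± 17.1 RPM in iMLL-ENL and 140 ± 62.3 RPM in WT (SD, n = 4 each). Among the 29 members with a known length, Snora62 came next, with 66.8 ± 16.1 RPM per 100 bases in iMLL-ENL and 54.4 ± 8.26 in WT. Undivided, Snora24 had 152, 187, 151 and 193 RPM in iMLL-ENL, against 166, 290, 93.7 and 176 RPM in WT. Its WT libraries reach below and above all iMLL-ENL libraries, with WT replicate 2 the highest. The log2 fold change was 0.02 ± 0.30 (SE, adjusted p = 0.969 in limma), and its sign turned under 5 of 15 alternatives.

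Snora62, known in human as E2, and SNORA63.1, which shares its number with human E3, belong to guides of 28S rRNA in human. Snora62 lies in an intron of Rpsa, the gene of a ribosomal protein that also serves as a laminin receptor. It had 91.3, 85.9, 85.6 and 135 RPM in iMLL-ENL, against 85.1, 67.5, 75.4 and 96.0 RPM in WT (log2 fold change 0.28 ± 0.19, SE, adjusted p = 0.278 in limma). SNORA63.1 had 52.5, 43.5, 51.8 and 54.0 RPM in iMLL-ENL, against 43.0, 34.0, 36.4 and 50.3 RPM in WT (0.31 ± 0.16, SE, adjusted p = 0.167 in limma). Both overlap between the groups, and both changes turned negative after TMM scaling, at -0.12 and -0.09.

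Snora64, known in human as U64, had 53.4, 65.8, 54.6 and 83.3 RPM in iMLL-ENL, against 38.4, 93.3, 23.0 and 63.1 RPM in WT, where WT replicate 2 is the highest of all 8. Its log2 fold change was 0.39 ± 0.39 (SE, adjusted p = 0.464 in limma). Snora17 had 42.3, 65.1, 56.8 and 85.7 RPM in iMLL-ENL, against 32.2, 57.2, 15.9 and 56.2 RPM in WT (0.74 ± 0.40, SE, adjusted p = 0.187). SNORA18.1 had 47.3, 52.8, 45.3 and 71.5 RPM in iMLL-ENL, against 37.7, 50.8, 19.8 and 44.6 RPM in WT (0.55 ± 0.29, SE, adjusted p = 0.173). In each of these, WT replicate 3 is the lowest library and the groups overlap. Snora75, known in human as U23 and hosted by the nucleolin gene Ncl, had 50.3, 51.2, 57.3 and 79.8 RPM in iMLL-ENL, against 39.1, 20.8, 29.4 and 54.8 RPM in WT. Only WT replicate 4 reaches into the iMLL-ENL range, and the change of 0.77 ± 0.29 missed the threshold (SE, adjusted p = 0.0721 in limma). It was called under 5 of 15 alternatives, and without WT replicate 2 or 4 among them.

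Of the 38 tested members, 3 had a mean log2 change below 0, and none passed the test. Snora20, in an intron of the chaperonin gene Tcp1 at chr17:12922790-12922917 on the plus strand, had 37.4, 29.7, 31.5 and 54.5 RPM in iMLL-ENL, against 58.1, 31.95, 35 and 73.2 RPM in WT (log2 fold change -0.32 ± 0.30, SE, adjusted p = 0.433 in limma). Snora41, in the elongation factor gene Eef1b2, had 15.8, 8.73, 11.03 and 22.2 RPM in iMLL-ENL, against 22.1, 11.6, 14.4 and 23.8 RPM in WT (-0.32 ± 0.34, SE, adjusted p = 0.493). Snora21, in the ribosomal protein gene Rpl23, had 15.5, 12.3, 15.8 and 20.04 RPM in iMLL-ENL, against 19.6, 24.9, 10.99 and 18.2 RPM in WT (-0.17 ± 0.27, SE, adjusted p = 0.680). In Snora20 and Snora41, replicate 4 and replicate 1 are the highest libraries of each group, and all 3 overlap between groups. The sign of Snora21 turned positive when libraries were scaled to the total of the rows, at 0.10, or without the 5 most abundant rows, at 0.13.

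To ask which members departed from the class itself, each library was rescaled so that its 92 rows gave the same sum. In this limma fit, with adjustment over all 633 tested rows, 2 of the 38 members were higher in iMLL-ENL and 0 were lower. Of all tested rows, 3.63% were higher and 13.9% lower. Dividing by the H/ACA sum, which has the higher mean in iMLL-ENL, moves all other rows down there. These percents are therefore no background for the members. SNORA51.4 made up 2.69%, 4.05%, 3.06% and 3.26% of the H/ACA sum in iMLL-ENL, against 1.46%, 1.77%, 1.64% and 2.24% in WT, and its share rose by 0.85 ± 0.20 on the log2 scale (SE, adjusted p = 0.0162). Snora33 made up 2.19%, 2.23%, 2.46% and 1.999% in iMLL-ENL, against 1.44%, 1.39%, 1.37% and 1.69% in WT, a rise of 0.57 ± 0.17 (SE, adjusted p = 0.0421). Shares of both members are higher in every iMLL-ENL library than in any WT library. With 1 library left out, the call of SNORA51.4 was lost without iMLL-ENL replicate 2 (adjusted p = 0.0706), iMLL-ENL replicate 4 (0.0574) or WT replicate 1 (0.0597). That of Snora33 was lost without any 1 library other than WT replicate 4, with adjusted p between 0.0530 without WT replicate 3 and 0.143 without iMLL-ENL replicate 3, while its change stayed between 0.52 and 0.64.

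At the other end, Snora20 made up 2.36%, 1.73%, 1.96% and 2.40% of the sum in iMLL-ENL, against 4.37%, 2.15%, 3.82% and 4.32% in WT. WT replicate 2 is the library that overlaps. The change in share was -0.74 ± 0.24 (SE, adjusted p = 0.0615 in limma), short of the threshold. Without WT replicate 2 it was -0.97 (adjusted p = 0.00082), past the threshold. Snora24 made up 9.58%, 10.9%, 9.44% and 8.502% in iMLL-ENL, against 12.5%, 19.5%, 10.2% and 10.4% in WT, the highest in WT replicate 2. The 10 members with the highest mean took 40.3%, 40.5%, 40.5% and 40.6% of the sum in iMLL-ENL, against 42.9%, 48.1%, 42.4% and 42.7% in WT. Their share was below every WT value in all 4 iMLL-ENL libraries, with means of 40.5% in iMLL-ENL and 44.0% in WT. Snora24 is 1 of these 10, with a mean share of 9.60% in iMLL-ENL and 13.2% in WT. The difference of the 10 is thus close to that of Snora24 alone, and their share without it was not examined. The 29 mixed-case rows took 53.5%, 54.2%, 53.2% and 53.7% in iMLL-ENL, against 56.6%, 58.5%, 54.7% and 56.3% in WT, also without overlap. Their means were 53.7% in iMLL-ENL and 56.5% in WT. Snora24 is among these rows as well, and its own mean share differs by more than these means do. This separation is therefore not independent of that of the 10. No test was made on these combined shares.

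**Figure D4:**
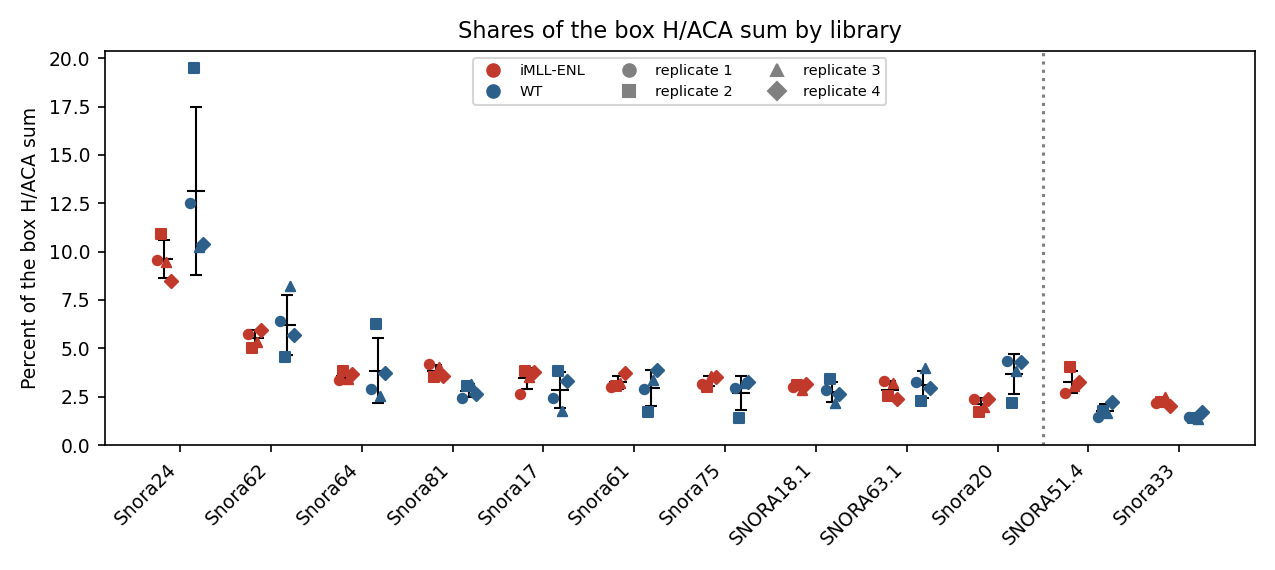
Percent of the box H/ACA sum for the 10 members with the highest mean and, right of the dotted line, any further member whose share was called, with a symbol per replicate, the mean as a bar and the SD as whiskers. Snora24 takes 8.502% to 10.9% in iMLL-ENL and 10.2% to 19.5% in WT, and SNORA51.4 and Snora33 lie higher in iMLL-ENL.

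Of the 29 members with coordinates, 27 lay inside an annotated gene on their own strand, in 25 different hosts. Of these, 24 lay in an intron and 3 overlapped an exon, Snora44 and Snora61 in Snhg12 and Snora7a in Rpl32. Snora17 and Snora43 had no containing gene on their strand. Ribosomal protein genes hosted 11 members, of which 9 had a higher mean in iMLL-ENL, 8 were tested and 2 rose, with a median log2 change without the filter of 0.28 and a range of -0.84 to 0.98. Other protein-coding genes hosted 8, of which 6 had a higher mean, 5 were tested and 1 rose (median 0.44, -0.32 to 0.85). Hosts annotated as non-coding or as processed transcripts held 8, of which 7 had a higher mean, 5 were tested and 1 rose (median 0.58, 0.02 to 1.38). Over the whole table, 62.4% of rows had a higher mean and 20.4% of tested rows rose. The ranges of the 3 kinds of host overlap, and no difference between them was tested.

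Where a host also holds a box C/D snoRNA, a ratio of 2 snoRNAs within a library cancels its scale. There were 9 such ratios among hosts with a named member. They were chosen after the data had been seen and were compared by exact two-sided permutation of log2 ratios over the 70 assignments of libraries, where the smallest p is 0.0286. Of the 9, 4 reached that p, and none passed 0.05 after adjustment over the 9 (adjusted p = 0.0643). With this smallest p, passing needed more of the 9 to reach it, so the adjusted result decides little. Snora33 and Snora81 had been called on these same values, so the p of their ratios is no separate support. The ratios within Snhg12 share snoRNAs with each other and are not separate tests. In Rps12, the ratio of Snora33 to Snord100 was 0.296, 0.403, 0.371 and 0.374 in iMLL-ENL, against 0.168, 0.194, 0.131 and 0.229 in WT, a log2 difference of 1.02. Snord100 itself had 117, 94.7, 106 and 122 RPM in iMLL-ENL, against 114, 106, 95.2 and 125 RPM in WT (log2 fold change -0.001, adjusted p = 0.997 in limma), with the groups overlapping. In Eif4a2, the ratio of Snora81 to Snord2 was 0.508, 0.610, 0.603 and 0.742 in iMLL-ENL, against 0.198, 0.332, 0.2999 and 0.315 in WT, a log2 difference of 1.12. Snord2 itself had 130, 98.5, 108 and 109 RPM in iMLL-ENL, against 165, 137, 95.9 and 142 RPM in WT, with a log2 fold change of -0.25 that did not pass (adjusted p = 0.302 in limma). Both ratios are higher in each iMLL-ENL library, and these differences stayed between 0.88 and 1.14 and between 0.95 and 1.21 with 1 library left out.

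In Ncl, the ratio of Snora75 to Snord82 averaged 0.301 ± 0.051 in iMLL-ENL and 0.287 ± 0.065 in WT (SD, n = 4 each, exact permutation p = 0.714). Snord82 itself had 206, 172, 195 and 216 RPM in iMLL-ENL, against 130, 107, 96.6 and 158 RPM in WT, and rose by 0.70 ± 0.17 (SE, adjusted p = 0.0199 in limma). Snord82 is separated between the groups, while Snora75 overlaps through WT replicate 4.

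Snhg12, a long non-coding RNA gene at which 3 members lie in a row, holds Snora16a at chr4:132309465-132309600, Snora44 at chr4:132309941-132310069 and Snora61 at chr4:132310240-132310369, all on the plus strand. Snora44 had 19.6, 23.2, 17.4 and 28.2 RPM in iMLL-ENL, against 19.2, 22.7, 19.3 and 24.1 RPM in WT (log2 fold change 0.03 ± 0.19, SE, adjusted p = 0.915 in limma). Snora16a had 40.4, 69.9, 40.3 and 55.1 RPM in iMLL-ENL, against 21.98, 28.6, 11.8 and 41.2 RPM in WT (1.05 ± 0.35, SE, adjusted p = 0.0526). It misses the threshold by little, with WT replicate 4 as the library that overlaps, and was called under 6 of 15 alternatives. These were no WT replicate 2 (0.0205), no WT replicate 4 (0.0206), a pseudocount of 10 (0.0496), the total of the rows (0.0166), the 5 most abundant rows out of it (0.0122) and the replicate block (0.0244). Snora61 had 47.7, 52.6, 51.1 and 84.4 RPM in iMLL-ENL, against 38.2, 25.2, 30.9 and 65.6 RPM in WT (0.60 ± 0.30, SE, adjusted p = 0.157). Snord99, the box C/D snoRNA of this gene, had 37.7, 37.3, 43.6 and 63.8 RPM in iMLL-ENL, against 24.8, 23.9, 24.5 and 32.7 RPM in WT, and rose by 0.74 ± 0.20 (SE, adjusted p = 0.0269 in limma).

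The ratio of Snora44 to Snord99 was 0.519, 0.621, 0.399 and 0.442 in iMLL-ENL, against 0.774, 0.951, 0.786 and 0.738 in WT, lower in every iMLL-ENL library (log2 difference -0.73). The ratio of Snora16a to Snora44 was 2.07, 3.01, 2.31 and 1.96 in iMLL-ENL, against 1.15, 1.26, 0.614 and 1.71 in WT, higher in every iMLL-ENL library (log2 difference 1.06). Snora16a to Snord99 and Snora61 to Snord99 overlapped between the groups, with exact permutation p of 0.514 and 0.600, and so did Snora61 to Snora44 and Snora16a to Snora61, with p of 0.0857 and 0.257. Snora44 itself averaged 22.1 ± 4.7 RPM in iMLL-ENL and 21.3 ± 2.5 RPM in WT (SD, n = 4 each), and its log2 change was -0.35 after TMM scaling, so which of the partners moves depends on the scale.

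**Figure D5:**
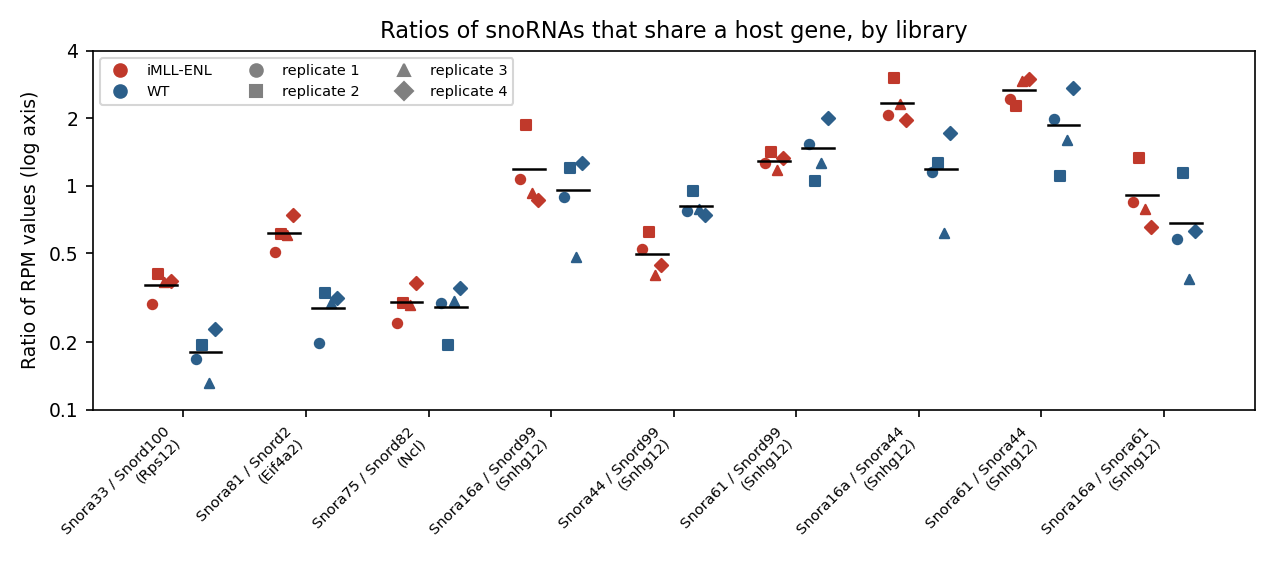
Ratio of 2 snoRNAs from 1 host gene in each library, on a log axis, with a symbol per replicate and the mean as a line. Ratios with Snora33, with Snora81 and of Snora16a to Snora44 lie higher in all iMLL-ENL libraries, and Snora44 to Snord99 lies lower.

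The 54 members under the filter mostly had few reads, and such values are less exact. Snora65, with a mean of 13.4 RPM over the 8 libraries, is an exception. Grouping all 92 rows by the number in their names gave 58 numbers, 21 of them with more than 1 row and 55 rows in all. In 5 of the 21 the copies had ratios on both sides of 1, and 11 of the 58 summed numbers (19.0%) were higher in every iMLL-ENL library, with 0 lower. Over single rows of the whole table these backgrounds were 29.3% and 7.99%. Without the filter, 16 of the 92 members rose and 0 fell in limma, against 23.9% and 5.39% of all 964 rows. These were the 8 above and 8 rows under the filter. In the authors' deposited table, 4 members had an FDR under 0.05, 2 higher and 2 lower, against 4.56% higher and 11.9% lower over the 964 rows. None of the 8 that rose with the filter passed in the authors' deposited table. Their FDR there ran from 0.114 for SNORA51.4 to 0.881 for SNORA5.1. The authors' deposited table has a median log2 fold change of 0.07 for the members and -0.10 for all rows, on a lower scale than the deposited RPM give.

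Those 4 rows lie under the filter and are named after their values were seen. Snora15, in Cct6a, a chaperonin gene that this annotation lists as a processed transcript, had 9.98, 6.47, 10.1 and 17.0 RPM in iMLL-ENL, against 2.94, 2.73, 3.38 and 4.63 RPM in WT, with a log2 fold change of 1.26 and an FDR of 0.0284 in the authors' deposited table. SNORA40.2 had 5.65, 4.96, 4.66 and 5.14 RPM in iMLL-ENL, against 1.96, 1.56, 1.35 and 1.96 RPM in WT (1.18, FDR 0.0407 in the authors' deposited table). Both are separated between the groups, and both also rose in limma without the filter, with adjusted p of 0.0119 and 0.00278. SNORA36.1 had 4.86, 1.73, 3.07 and 4.63 RPM in iMLL-ENL, against 10.5, 7.53, 4.23 and 6.59 RPM in WT (-1.40, FDR 0.0201 in the authors' deposited table). Snora65, in the ribosomal protein gene Rpl12, had 9.45, 5.07, 4.89 and 16.3 RPM in iMLL-ENL, against 31.8, 7.14, 9.13 and 23.3 RPM in WT (-1.39, FDR 0.0461 in the authors' deposited table). Both overlap between the groups, and neither passed in limma without the filter (adjusted p = 0.0769 and 0.269).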

How the data were processed

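Small RNA was sequenced from 4 iMLL-ENL and 4 WT samples, with libraries made by the QIAseq kit for miRNA, per the labels' protocols. The authors deposited 1 table of 964 rows and 8 library columns, labelled TPM. The values are treated as RPM deposited by the authors, since low values (up to 20 RPM) are whole multiples, within 0.0055 RPM, of 1 step per library whatever the row's length. That step was taken as 1 read to estimate depth. The smallest value lay at 1 step in 2 libraries and at up to 7 steps in the others, so read numbers are estimates. The deposited table also holds the authors' log2 fold change, p-value and FDR, per the file headers. The genome build is GRCm38, per the submitters' processing notes. How the authors aligned, counted and filtered reads, and with which annotation, is not given in the sources used here. Reads that fit several snoRNA copies may have been split or assigned to 1 of them, and fragments were not told apart from whole molecules.

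Rows with at least 10 RPM in at least 4 libraries were tested with limma 3.58.1 (R 4.3.3, statmod 1.5.0) on log2(RPM + 1), with trended and robust prior variance, two-sided, with Benjamini-Hochberg adjustment over 633 rows at 0.05. Fold changes on this scale understate the change of low rows. For shares, each library was rescaled to the mean H/ACA sum first. Sums and tests on ratios used pandas 2.3.3 and numpy 2.4.6 in Python 3.11.15. The fit was tested on simulated data with independent noise in each value, which leaves out shifts that the rows of a library share. Coordinates, hosts and sequences come from GENCODE release M21 by transcript name, which matched 29 of 92 rows. A host is a gene on the same strand that contains the member.

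The members, the lists and the rule for named rows were chosen with earlier results of these data known. That rule takes called members, the 10 with the highest mean, and the 5 highest and the 5 lowest changes among tested members. Of those 5 lowest, 3 were below 0. It also takes the 3 with the widest WT spread, and the copies of all these. Alternatives were a pseudocount of 10, no filter, TMM and quantile scaling, the total of the rows with and without the 5 most abundant, a replicate block, and leaving out each library. The ratios within hosts and the reads per length were added after seeing the data.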

Additional observations from a re-analysis of the deposited data

Results flagged for a closer look

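In groups of 4 libraries, a library was marked where its gap to the nearest other passed the 95% critical value of Dixon's test as a share of the group's range. Chance marks about 1 in 20 groups, and 3 of 44 were marked here, all of them iMLL-ENL replicate 4 as the highest library. It had 135.4 RPM of Snora62, a gap of 0.887 of the range. Snora61 had 84.42 RPM in it, with a gap of 0.865. For SNORA1.1 the value was 27.81 RPM, with a gap of 0.864. The same library was the highest of its group in 80 of the 92 members.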

How the results depend on the processing

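Among the values of single named rows under the alternatives, 275 kept direction and side of the threshold, 59 no longer passed it, 23 newly passed it and 13 turned sign. The 275 include rows that were not called to begin with. Of the 15 alternatives on the deposited scale, the call was lost under 2 for Snora81, 3 for SNORA51.4 and 4 for Snora33. For the other called rows it was lost under 7 (SNORA81.3) to 9 (Snora3). Against 8 members that rose, there were 16 without the filter, 1 with TMM, 2 with quantile normalization, 25 with the 5 most abundant rows out of the total (40.3% of all tested rows), 22 with the total of the rows and 0 to 20 with 1 library left out. Members that fell numbered 0 throughout. Against 2 higher shares and 0 lower, there were 4 and 1 without the filter (6.02% and 7.99% of all rows), and 0 to 3 and 0 to 2 with 1 library left out (0.632% to 6.79% and 1.58% to 22.6%). Percents of all rows given for shares, here and below, carry the downward shift that the rescaling puts on other rows. The log2 ratio of the sum, 0.40, was 0.0091 with TMM, 0.68 with the total of the rows, 0.70 with the 5 most abundant rows out and 0.26 to 0.53 with 1 library left out. Quantile normalization was not applied to the sum, and the planned count test on reads estimated from the steps was not run, because the values could not be shown to be whole reads in every library. Sign turned for Snora24 with TMM (-0.38), quantile (-0.10) and without iMLL-ENL replicate 2 (-0.03), iMLL-ENL replicate 4 (-0.05) or WT replicate 3 (-0.26), while it was 0.28 without WT replicate 2, and for Snora44 with TMM (-0.35) and without iMLL-ENL replicate 4 (-0.088), WT replicate 1 (-0.01) or WT replicate 3 (-0.01). It turned with TMM for Snora62 (-0.12) and SNORA63.1 (-0.085), and for Snora21 with the total of the rows (0.10) and the 5 most abundant rows out (0.13). The cause was not tested. With the replicate number as a block, 13 members rose and 0 fell (23.9% and 6.64% of all tested rows), and 2 shares were higher and 1 lower (4.58% and 17.7%). The lower share was that of Snora20 (-0.74, adjusted p = 0.0196 in limma). Deviations of same-numbered libraries correlated at 0.39, 0.29, -0.13 and 0.42. iMLL-ENL replicates 1, 2 and 4 correlated best with the WT library of the same number, and iMLL-ENL replicate 3 with WT replicate 2. Whether the numbers pair the samples was not tested. Depth limits the 54 members with a mean under 10 RPM, which are not the same set as the 54 left out of testing.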
